A study of Mus musculus with 15 samples.

Results

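Macrophages from white fat were compared with macrophages from spleen. Of the 15 libraries in the series, 7 enter the comparison, chosen by their labels: 2 of subcutaneous fat macrophages (sATM), 2 of visceral fat macrophages (vATM) and 3 of spleen macrophages (SpM). The fat value of a gene is the mean of both depots, each given the same weight, and the spleen value is the mean of the spleen libraries. All cells were sorted for F4/80 and CD45 and their total RNA was sequenced from low input directly after isolation. The donors were C57BL/6J mice, and the labels name no mutant allele, transgene or drug. Fat and spleen shared 1 dissociation step, 30 minutes in collagenase at 37 °C. The titles also carry the letters ND, which the labels do not expand. Tissues came from 10 mice and the labels do not say which animals, or how many, went into a library, so p-values reflect how much these libraries vary, and that variation may be technical. The other 8 libraries, from brain, sympathetic ganglia and nerve fibers, served to estimate the spread.

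Both populations are tissue-resident phagocytes with different daily work. Macrophages of the splenic red pulp remove aged red cells, break down heme and return the iron to the blood, and they depend on the transcription factor Spic. Macrophages of lean fat lie along vessels and between adipocytes, where they clear dead cells, take up lipid and carry lectins and scavenger receptors that are often grouped as alternative activation. Enzymatic dissociation at body temperature is itself known to switch on immediate-early and heat shock genes in many cell types.

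The corrected count table held 4.42 to 12.5 M counts in the fat libraries and 5.93 to 11.4 M in the spleen libraries (M is the SI prefix mega). The genes Mir6236, Lars2 and Rn45s, where reads of ribosomal RNA accumulate, made up 57.6% to 71.5% of them in fat and 54.0% to 60.6% in spleen, which left 1.45 to 4.82 M counts for other genes. On log2 values, libraries of 1 group correlated at 0.895 to 0.959. Libraries of different fat depots correlated at 0.882 to 0.953, and fat with spleen libraries at 0.765 to 0.852. The library sATM 1 was closer to vATM 1 (0.904) than to sATM 2 (0.895). The first principal component (55.2% of variance) separated fat from spleen, and the second (19.0%) set sATM 1 apart at 104.5, against -55.28 to 36.24 for the others. The second component also went with the replicate number, as replicate 1 was the highest of each group. Its values were 104.5 against -40.35 in sATM, -14.02 against -55.28 in vATM, and 36.24 against 1.151 and -32.21 in SpM. The library sATM 1 is also the shallowest of the 7, and results that rest on it are given with and without it. Levels below are counts per M after TMM scaling (CPM), and unless stated they are listed in the order sATM 1, sATM 2, vATM 1, vATM 2, then SpM 1, 2 and 3.

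Of 15289 genes tested with edgeR's quasi-likelihood test, 931 (6.09%) were higher in fat and 778 (5.09%) lower, together 11.2%. Counts of called list members below are to be read beside these shares. Calls needed a Benjamini-Hochberg adjusted p under 0.05 and a difference of 1 or more on the log2 scale. The median log2 fold change of all tested genes was -0.12. Large differences were common among the called genes, 245 of the higher ones having a log2 fold change of 5 or more and 159 of the lower ones a change of the same size downwards. The 4 fat libraries lay without overlap above the 3 spleen libraries for 891 of the 931 higher genes and below them for 739 of the 778 lower genes, and over all tested genes such separation occurred in 13.9% and 14% of genes. In the raw gene-body table, deposited without the removal of DNA reads, 98.7% of the 1708 called genes found there kept the sign of their difference and 84.7% also a log2 difference of at least 1, although that table called only 243 higher and 175 lower genes and shared 22.4% of the calls. Leaving out vATM 1 lowered the count of genes lower in fat to 510. With log2(RPKM + 0.1), 39.2% of called genes were higher in fat, against 54.5% in the count fit.

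**Figure D1:**
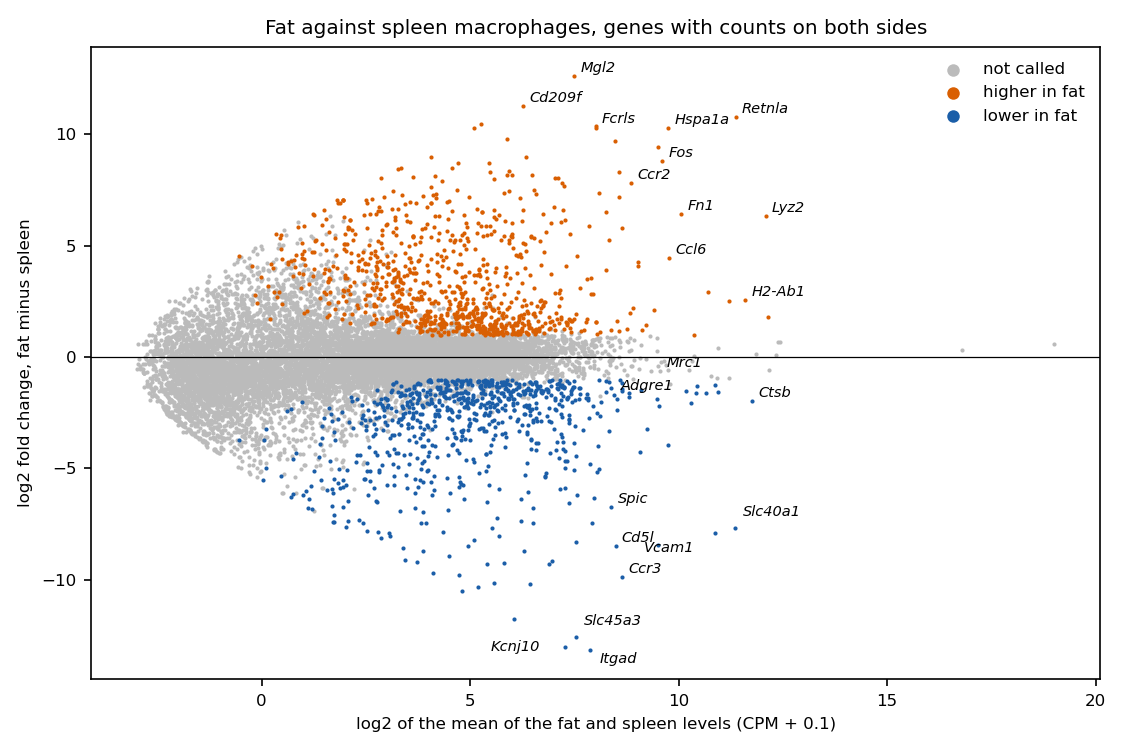
Log2 fold change of fat over spleen macrophages (vertical axis) against the log2 of the mean level in CPM + 0.1 (horizontal axis) for each tested gene with counts on both sides. Orange points are higher and blue points lower in fat by edgeR's test, and grey points were not called. Mgl2, Retnla and Hspa1a stand at the top and Itgad, Kcnj10 and Slc45a3 at the bottom, while Mrc1 is not called.

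The marker genes fitted the tissue labels with 1 exception, Mrc1. Retnla (chromosome 16, 48842552 to 48844461, mm10), which encodes the secreted resistin-like protein alpha, had 837, 4602, 9629 and 6119 CPM in fat and 3.54, 2.38 and 1.66 in spleen. All fat libraries were far above all spleen libraries, and sATM 1 was the lowest of the fat libraries (log2 fold change 10.78 ± 1.0 SE, adjusted p = 1.73e-06). Per gene length its level averaged 7321 RPKM in fat against 4.65 in spleen. It was above that of the lysozyme gene Lyz2 in both visceral libraries (10799 and 9237 RPKM against 4474 and 6992) and below it in both subcutaneous ones (1248 and 8001 against 6724 and 10797). Spic (chromosome 10, 88675270 to 88683023) had 14.7, 2.20, 5.82 and 3.73 CPM in fat and 802, 643 and 547 in spleen (-6.74 ± 0.58, adjusted p = 8.64e-07). Vcam1, the adhesion molecule that marks red pulp macrophages (chromosome 3, 116110020 to 116129688), had 14.0, 9.35, 18.5 and 22.3 CPM in fat and 3973, 4610 and 2570 in spleen (-7.92 ± 0.54, adjusted p = 8.54e-08). For both genes the groups were far apart in every library.

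Mrc1, the mannose receptor often used to mark adipose macrophages, did not separate the tissues. Its levels were 334, 524, 833 and 747 CPM in fat and 1135, 855 and 695 in spleen, so the groups overlapped (-0.62 ± 0.45, adjusted p = 0.526). Adgre1, which encodes the sort marker F4/80, was present in all 7 libraries and lower in fat, with 128, 193, 154 and 194 CPM against 553, 609 and 452 (-1.69 ± 0.23, adjusted p = 8.26e-05). Ptprc, which encodes CD45, overlapped between the tissues (951, 417, 390 and 345 CPM against 867, 757 and 685; -0.62 ± 0.30, adjusted p = 0.25).

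**Figure D2:**
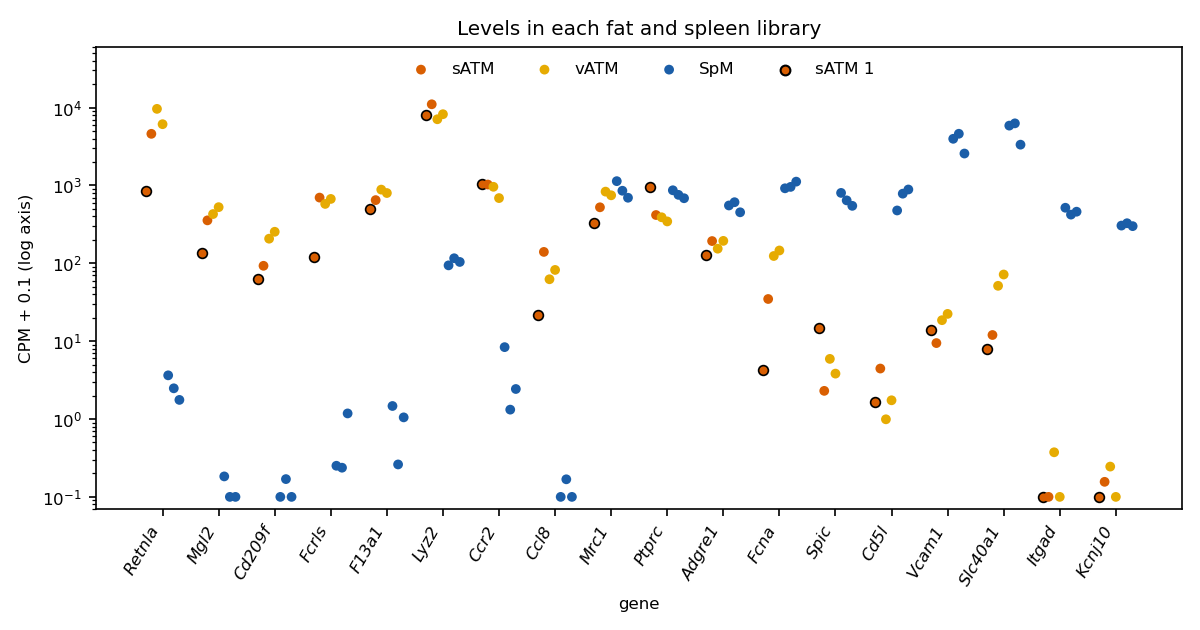
Level of 18 named genes in each of the 7 libraries, as CPM + 0.1 on a log axis. Each point is 1 library, orange for sATM, yellow for vATM and blue for SpM, with sATM 1 outlined in black. Retnla, Mgl2 and Lyz2 are higher in every fat library and Spic, Vcam1 and Slc40a1 in every spleen library, while Mrc1 and Ptprc overlap.

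Genes of red pulp identity were the most uniformly lower group in fat. Of 14 tested members of that list, 11 were lower and 1 higher, with a median log2 fold change of -5.79. The summed level of the list was 259 to 614 CPM in the fat libraries and 10129 to 15256 in spleen. Summed levels here and below are over all list members with values, including those not tested. Slc40a1, the iron exporter ferroportin (chromosome 1, 45908070 to 45925594), had 7.82, 11.9, 51.3 and 71.7 CPM in fat and 5867, 6274 and 3340 in spleen (-7.70 ± 0.31, adjusted p = 1.07e-09). The spleen libraries were at least an order of magnitude above every fat library, and within fat the visceral depot had more. Cd5l, a secreted scavenger protein, had 1.53, 4.35, 0.892 and 1.64 CPM against 477, 784 and 887 (-8.50 ± 0.81). The integrin gene Itgad (chromosome 7, 128173946 to 128205503) had 2 counts over the 4 fat libraries and 517, 422 and 460 CPM in spleen. That is a spleen to fat ratio of 6787 with a counting interval of 1879 to 56039. Here and below, such intervals cover counting error of the corrected counts only. They leave out the error of removing DNA reads, so the true uncertainty is larger. Raw gene-body counts of Itgad were 17, 91, 8 and 85 in fat against 13787, 10193 and 7627 in spleen.

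Not all genes of the list followed. Cd209b, a lectin known from marginal zone macrophages of the spleen, went the other way, with 8.65, 23.5, 36.0 and 64.6 CPM in fat and 1 count over the 3 spleen libraries (ratio 921, counting interval 165 to 36386). Its raw gene-body counts were 65, 425, 533 and 941 in fat against 1, 43 and 74 in spleen. That is a smaller difference, so the size of the ratio depends on the removal of DNA reads. The complement-activating lectin Fcna was intermediate in visceral fat (4.21, 34.7, 124 and 146 CPM against 919, 958 and 1119; -4.26 ± 0.50). Treml4 was lower in fat (-6.33 ± 0.91) but had 94.4 CPM in sATM 1, against 0 to 2.51 in the other fat libraries and 393 to 543 in spleen. In bulk samples fewer cells of a type and less RNA per cell cannot be told apart.

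Genes of the wider iron and heme list were called in both directions. Of 29 tested genes, 8 were lower and 4 higher in fat (median -0.86). Among the lower genes were the heme-degrading enzyme Hmox1 (36.4, 32.7, 35.9 and 21.9 CPM against 549, 505 and 473; -4.01 ± 0.34), the heme transporter of the phagolysosome Slc48a1 (-2.39 ± 0.37), the biliverdin reductase Blvrb (-1.85 ± 0.24), the phagosomal metal transporter Slc11a1 (-1.79 ± 0.23) and transferrin, Trf (-2.05 ± 0.27). With raw gene-body counts 1 member was called lower and 0 higher. Among the higher genes were the ferrireductase Steap3 (17.1, 46.9, 24.0 and 24.9 CPM against 5.81, 5.22 and 4.63; 2.42 ± 0.55, adjusted p = 0.00661) and Bach1, a heme-sensing repressor that holds down Hmox1 (123, 52.3, 50 and 39.6 against 21.1, 12.3 and 13.7; 1.99 ± 0.45, adjusted p = 0.00627). Leaving out sATM 1, SpM 1, SpM 2, SpM 3 or vATM 2 left 2 higher calls, and leaving out sATM 2 ended that of Steap3. Ferritin subunits were among the most abundant spleen transcripts per length, Ftl1 with 2578 RPKM against 1130 in fat and Fth1 with 1837 against 747.

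Spleen macrophages also carried transcripts with no known part in iron recycling. The inward rectifier potassium channel genes Kcnj10 and Kcnj16, whose products can pair, had 300 to 327 CPM and 104 to 152 CPM in spleen. Each had 1 count over the fat libraries (ratios 9053, counting interval 1625 to 357579, and 3856, counting interval 692 to 152293). Raw gene-body counts of Kcnj10 were 24, 107, 6 and 104 in fat against 5537, 4057 and 3188 in spleen. Those of Kcnj16 were 16, 175, 16 and 150 against 3734, 2660 and 1833. These are smaller differences, so the size of both ratios depends on the removal of DNA reads. Slc45a3, a membrane transporter, had 330 to 454 CPM in spleen and 3 counts in fat (ratio 3615, counting interval 1237 to 17528). Ccr3, the eotaxin receptor, had 845, 912 and 653 CPM in spleen and 7.47, 0.730, 0.359 and 0 in fat (-9.88 ± 0.70, adjusted p = 1.12e-07). Ccr3 is also a receptor of eosinophils. The other 6 eosinophil genes tested were not called, each with at most 3.38 CPM in spleen, and the part of eosinophils in the Ccr3 level was not tested. Further spleen-high genes were the endocytic receptor Stab2 (-9.31 ± 0.97), the metalloprotease-like Adamdec1 (-9.16 ± 0.63), the prostacyclin synthase Ptgis (-9.31 ± 0.70), Galnt3 (-10.15 ± 0.97) and Hs3st2 (-9.25 ± 0.82), both glycan-modifying enzymes. Each of these had under 3 CPM in every fat library.

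The list for macrophages resident in fat and around vessels had 15 of 20 tested genes higher in fat, with 1 lower and a median of 6.27. Fcrls, an Fc receptor-like gene, had 121, 698, 579 and 671 CPM in fat and 0.151, 0.137 and 1.08 in spleen (10.31 ± 0.79, adjusted p = 2.39e-07). The same gene averaged 1668 CPM in the microglia libraries of the series. F13a1, the coagulation factor XIII A subunit, had 492, 648, 884 and 799 CPM against 1.37, 0.161 and 0.950 (9.72 ± 0.66). The folate receptor Folr2 (8.04 ± 0.77), the chemokine Pf4 (7.33 ± 0.67), the hyaluronan receptor Lyve1 (7.16 ± 0.89), the endothelin receptor Ednrb (5.53 ± 0.55) and the endocytic receptor Stab1 (5.42 ± 0.53) followed. For Folr2, Pf4, Lyve1, Ednrb and Stab1 both visceral libraries were above both subcutaneous ones, a difference that was not called. Lyve1, for example, had 25.0, 78.4, 278 and 203 CPM in fat.

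The exception was Timd4, a phosphatidylserine receptor of long-lived resident macrophages, which was lower in fat (6.01, 9.77, 22.5 and 24.2 CPM against 52.9, 65.3 and 41.5; -1.96 ± 0.54, adjusted p = 0.0244). Its call was lost without sATM 1, SpM 1, SpM 2, vATM 1 or vATM 2. The related genes Stab1 and Stab2, which encode a pair of similar endocytic receptors, thus lay on opposite sides. Stab1 had 31.0, 60.4, 197 and 208 CPM in fat against 2.02, 0.570 and 4.43, and Stab2 had 0 to 0.750 CPM in fat against 186, 231 and 292.

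Alternative activation and C-type lectin genes overlapped with that list and pointed the same way. Of 23 tested alternative activation genes 12 were higher and 1 lower (median 2.48), and of 25 C-type lectin genes 11 were higher and 4 lower (median 1.20). Mgl2, a galactose-binding lectin (chromosome 11, 70130357 to 70137542), had 136, 356, 429 and 526 CPM in fat and 1 count in the spleen libraries together (ratio 10037, counting interval 1801 to 396447). Cd209f, of the DC-SIGN family (chromosome 8, 4102793 to 4105764), had 62.1, 92.8, 207 and 254 CPM and 1 count (ratio 4274, counting interval 767 to 168803). Clec10a, the close relative of Mgl2, had 56.9 to 151 CPM and 3 counts (ratio 1080, counting interval 369 to 5235). Reads of near-identical members of the Cd209 and Mgl families can be split between copies, so their separate values are uncertain.

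Other genes of these lists were the transcription factors Klf4 (5.52 ± 0.37) and Irf4 (3.05 ± 0.36) and the chemokine Ccl8, which had 21.3, 140, 62.3 and 82.1 CPM against 1 count (ratio 2120, counting interval 380 to 83718). Trem2, a lipid-sensing receptor, had 15.2 to 46.5 CPM against 3 counts (ratio 327, counting interval 112 to 1586). Lower in fat were the transglutaminase Tgm2 (58.5, 15.1, 4.07 and 9.03 CPM against 272, 291 and 305; -4.23 ± 0.49) and, among the lectins, Clec4n, the fungal receptor dectin-2 (-5.03 ± 0.45), and Cd302 (-1.95 ± 0.25). Clec1b, which platelets also carry, had 47.1 to 69.1 CPM in spleen and 1 count in fat (ratio 1615, counting interval 290 to 63808).

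Start-site sequences from RefSeq are shown for 1 gene of each side, to show the letters before a gene of each program. Retnla holds TTCNNNNGAA, the spacing bound by STAT6, and Cd5l holds GAGGAA, a core bound by the ETS factors PU.1 and Spi-C, on the opposite strand (TTCCTC as printed). The 250-base windows of Retnla and Cd5l each hold both kinds of site, so the letters do not separate them, and only 1 kind is in capitals in each. Capitals mark these matches, which start at position -145 for Retnla and -66 for Cd5l, counted back from the RefSeq start. The Retnla window is cut to the 193 bases before the deposited start, which lies upstream of the RefSeq start, and the Cd5l window is shown whole. Both are from build GRCm38.p6, plus strand, chr16:48842359-48842551 and chr3:87357631-87357880.
Retnla: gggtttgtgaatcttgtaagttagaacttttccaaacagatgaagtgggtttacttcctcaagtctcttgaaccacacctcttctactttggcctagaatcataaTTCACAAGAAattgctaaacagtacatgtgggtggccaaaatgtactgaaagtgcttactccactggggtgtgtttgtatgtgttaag
Cd5l: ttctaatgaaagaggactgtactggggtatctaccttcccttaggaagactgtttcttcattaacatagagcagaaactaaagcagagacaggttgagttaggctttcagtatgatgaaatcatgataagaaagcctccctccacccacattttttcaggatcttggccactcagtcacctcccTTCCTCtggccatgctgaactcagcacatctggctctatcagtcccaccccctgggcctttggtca
Among 11052 tested genes with a RefSeq start within 100 bases of the deposited one, TTCNNNNGAA stood in 5.33% and GAGGAA, searched on both strands, in 22.9% of the 250-base windows. Of the called red pulp genes with a window 5 of 8 held GAGGAA, and of the called alternative activation genes 6 of 10 held GAGGAA and 2 of 10 held TTCNNNNGAA. The shares over all genes higher in fat were 4.66% and 28.4%, and over all lower genes 4.68% and 25.4%. A match is a description of the letters and no measure of binding.

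Chemokine genes were higher in fat, or not called. Of 26 tested, 13 were called higher by edgeR's test and none lower (median 3.41). Ccl2, which recruits monocytes, had 41.1, 202, 197 and 203 CPM in fat and 0.374, 0 and 0.419 in spleen (9.0 ± 0.84). Ccl6 had 736, 2248, 2078 and 1620 CPM against 77.8, 95.4 and 53.7 (4.46 ± 0.44), and Ccl9 364, 1041, 990 and 617 against 3.66, 1.90 and 1.23 (8.33 ± 0.56). The inflammatory chemokines Ccl3 (8.17 ± 0.46) and Ccl4 (5.91 ± 0.43) had 90.5 to 154 CPM and 73.1 to 119 CPM in fat, with under 2 CPM in each spleen library. For Ccl2, Ccl6 and Ccl9 sATM 1 had the lowest fat value, and for Ccl3 the highest. Cxcl2 is listed at 0 in all fat libraries although its raw gene-body counts there were 407, 3249, 5405 and 3608, against 2, 10 and 10 in spleen, and in the raw table it was called higher in fat (9.22 ± 1.36, adjusted p = 0.00333).

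Chemokine receptors divided the tissues as well (8 higher and 3 lower of 18, median 0.02). Ccr2, the receptor for Ccl2, had 1031, 1027, 961 and 688 CPM in fat and 8.28, 1.22 and 2.33 in spleen (7.82 ± 0.85, adjusted p = 8.59e-06). Ccr1 (5.68 ± 0.52) and Cxcr4 (5.13 ± 0.57) were higher too. So were the complement receptors C5ar1 (4.60 ± 0.37) and C3ar1 (5.13 ± 0.47), which count among the higher genes of this list and of the complement list. Lower in fat were Ccr3, described above, and the formyl peptide receptor Fpr1 (10.2, 3.56, 0.120 and 0.614 CPM against 148, 243 and 139; -6.79 ± 0.69).

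Of the inflammatory cytokine and NF-kB genes 13 of 26 were higher and 3 lower (median 1.41). Among the higher ones, Nfkbiz, an inducible NF-kB cofactor, had 316, 150, 243 and 208 CPM against 33.8, 39.4 and 21.3 (2.86 ± 0.38). The signalling inhibitor Socs3 (3.88 ± 0.41), the cytokine Osm (4.01 ± 0.49) and the stress gene Gadd45b (3.04 ± 0.46) were higher, and Ptgs2, which makes prostaglandins, had 8.05 to 35.0 CPM against 2 counts (ratio 244, counting interval 67.5 to 2013). The cytokine Il18 was the clearest member on the spleen side, with 6.67, 13.1, 11.2 and 8.90 CPM in fat and 193, 180 and 170 in spleen (-4.17 ± 0.35, adjusted p = 6.36e-07). Icam1 was lower as well (-1.81 ± 0.40).

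Immediate-early genes were higher in fat in 23 of 27 tested, the largest share of the lists examined, with 1 lower and a median of 3.90. Fos (chromosome 12, 85473901 to 85477270), an AP-1 subunit, had 2031, 1487, 1508 and 1201 CPM in fat and 2.22, 7.73 and 0.148 in spleen (8.79 ± 0.74, adjusted p = 6.76e-07). Fosb had 110 to 130 CPM against 0 to 0.693 (8.35 ± 0.52), and Jun 964, 554, 552 and 342 CPM against 6.99, 6.02 and 6.24 (6.50 ± 0.44). The stress factor Atf3 (7.21 ± 0.33), the MAP kinase phosphatase Dusp1 (7.37 ± 0.49) and the mRNA decay factor Zfp36 (4.29 ± 0.29) were higher, while the kinase Sgk1 was lower (31.5, 22.7, 8.02 and 10.7 CPM against 89.6, 97.1 and 59.6; -2.37 ± 0.31). No fat library overlapped with a spleen library for any of these 7 genes.

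Heat shock genes were higher in 7 of 16 tested, with 1 lower and a median of 0.83. Hspa1a had 1799, 1650, 1637 and 1773 CPM in fat and 0.748, 1.64 and 1.83 in spleen (chromosome 17, 34969359 to 34972156; 10.28 ± 0.46, adjusted p = 2.70e-09). Hspa1b had 613, 455, 572 and 441 CPM against 0.0832, 0.547 and 0.609 (chromosome 17, 34956429 to 34959238; 10.37 ± 0.61). These are near-identical copies of the inducible Hsp70 gene, and how reads were shared between them is uncertain. Their spread within fat was small beside the difference. Smaller differences were found for the co-chaperone Dnajb1 (1.70 ± 0.30), Bag3 (1.69 ± 0.40), Hsph1 (1.43 ± 0.35) and the constitutive Hspa8 (1.26 ± 0.39, adjusted p = 0.0481, a call lost on leaving out any 1 of the 7 libraries). Without SpM 3 or vATM 1, 4 members were called higher. The only member called lower, Hsp90aa1, is listed at 0 in all fat libraries despite 2182, 6241, 5584 and 5613 raw gene-body counts there against 566, 409 and 306 in spleen, and in the raw table its difference was 4.09 ± 1.05 in favor of fat (adjusted p = 0.0727).

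The same collagenase step was used on brain, and the microglia levels are given beside those of fat and spleen. Fos averaged 14.4 ± 1.19 CPM (SD, n = 3) in microglia, 3.37 ± 3.92 in spleen (n = 3), 1759 ± 385 in sATM and 1354 ± 217 in vATM (n = 2 each). Hspa1a averaged 20.3 ± 6.70 CPM in microglia, 1.41 ± 0.576 in spleen, 1725 ± 106 in sATM and 1705 ± 96.5 in vATM. The libraries of sympathetic ganglia and nerve fibers, which were digested in other ways, were above every fat library in Fos, with 3265 ± 546 CPM (n = 3) and 6253 ± 551 (n = 2). The stated time and enzyme were the same for fat, spleen and brain. Whether the tissues responded unequally to this digestion was not tested. Time from dissection to lysis and the tissue mass per digest were not stated in the labels, and their part in the difference was not tested.

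**Figure D3:**
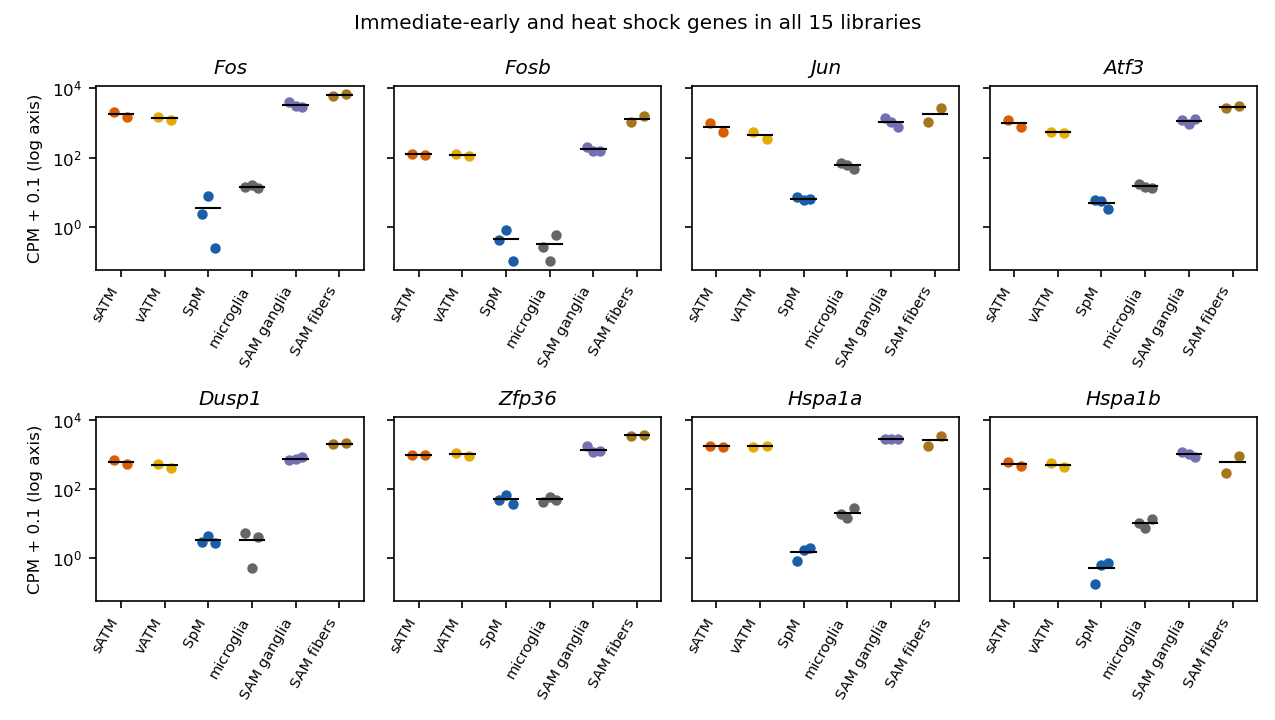
CPM + 0.1 on a log axis for 8 immediate-early and heat shock genes in all 15 libraries, grouped by tissue. Each point is 1 library and each bar a group mean. Every spleen and microglia library lies below every fat library in each panel.

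The start-site sequences of 4 of these genes are printed to show what they do and do not share. Capitals mark GAANNTTC, an inverted pair of heat shock element units, in Hspa1a and Hspa1b, the cyclic AMP response core TGACGT in Dusp1, and a CArG box, the site of serum response factor, in Zfp36. Each is 250 bases on the minus strand of GRCm38.p6 ending at the base before the start, from chr17:34972157-34972406, chr17:34959239-34959488, chr17:26508473-26508722 and chr7:28379229-28379478.
Hspa1a: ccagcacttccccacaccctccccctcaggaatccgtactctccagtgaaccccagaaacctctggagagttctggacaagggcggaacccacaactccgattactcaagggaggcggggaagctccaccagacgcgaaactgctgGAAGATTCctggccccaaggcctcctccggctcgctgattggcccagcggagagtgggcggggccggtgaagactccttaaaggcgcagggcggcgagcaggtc
Hspa1b: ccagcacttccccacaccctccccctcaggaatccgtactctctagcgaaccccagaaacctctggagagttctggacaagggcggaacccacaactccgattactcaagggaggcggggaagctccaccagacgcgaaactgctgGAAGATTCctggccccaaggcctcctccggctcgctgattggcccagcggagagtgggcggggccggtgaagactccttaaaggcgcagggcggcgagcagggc
Dusp1: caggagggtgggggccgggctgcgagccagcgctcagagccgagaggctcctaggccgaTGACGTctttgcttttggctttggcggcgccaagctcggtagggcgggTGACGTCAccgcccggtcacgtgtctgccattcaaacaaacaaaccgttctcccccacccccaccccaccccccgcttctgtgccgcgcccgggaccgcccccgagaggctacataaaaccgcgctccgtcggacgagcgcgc
Zfp36: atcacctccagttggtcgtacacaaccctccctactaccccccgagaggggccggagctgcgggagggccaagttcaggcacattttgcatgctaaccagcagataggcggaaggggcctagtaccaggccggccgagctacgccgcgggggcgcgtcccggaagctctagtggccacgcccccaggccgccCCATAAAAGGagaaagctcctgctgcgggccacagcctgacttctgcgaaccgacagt
The Hspa1a and Hspa1b windows differ in 3 of 250 bases, and the match starts at position -104 in both. In Dusp1 TGACGT matches start at positions -191, -143 and -141, where the last 2 overlap on opposite strands, and in Zfp36 the CArG box starts at -58. GAANNTTC stood in 5.74% of all 11052 windows and in 6 of the 13 heat shock windows, and TTCNNGAA in 6.39% and 3 of 13. TGACGT, on both strands, stood in 9.27% of all windows, in 7.97% of those of genes higher in fat and in 6 of 21 called immediate-early windows. The CArG box stood in 1.15%, 2.56% and 2 of 21, and the AP-1 site TGANTCA in 5.31%, 7.37% and 0 of 21. The antioxidant core TGACNNNGC, on both strands, stood in 11.5% of all windows and 4 of 20 iron and heme windows.

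Antigen presentation genes were higher in fat, with 7 of 12 tested MHC class II genes called and 0 lower (median 1.83). The genes H2-Ab1 (2172, 6930, 6024 and 6076 CPM against 729, 1195 and 761; 2.55 ± 0.51), H2-Eb1 (2.92 ± 0.50), H2-Aa (2.50 ± 0.57) and the class II transactivator Ciita (121, 214, 133 and 189 against 33.0, 49.2 and 39.6; 2.02 ± 0.31) were among them. The invariant chain Cd74 was higher as well (1.81 ± 0.49, adjusted p = 0.0203), though its call was lost without sATM 2, SpM 1, SpM 3, vATM 1 or vATM 2. Spleen levels of H2-Ab1 were not low, and the lowest fat value, that of sATM 1, was still above the highest spleen value. Without sATM 2 the list had 4 called members, and with raw gene-body counts it had 0.

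Complement genes went both ways, 6 higher and 5 lower of 21 (median -0.23). The classical component C4b was higher in fat (4.15 ± 0.53). Of the initiator C1q, C1qc was lower (245, 807, 1103 and 1228 CPM against 2207, 2720 and 2249; -1.61 ± 0.33). The terminal component C6 had 2.59 to 9.33 CPM in fat and 303 to 429 in spleen (-6.21 ± 0.74), and C2 was lower too (-4.42 ± 0.56). Without SpM 2 or vATM 1, 3 members were called lower.

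Genes for the uptake of dying cells were called in both directions. Of 21 efferocytosis genes 6 were higher and 7 lower (median -0.50), and of 15 scavenger receptor genes 5 were higher and 4 lower (median -0.18). The receptor kinase Mertk had 4.26, 22.5, 15.2 and 23.7 CPM in fat and 352, 442 and 279 in spleen (-4.45 ± 0.55), and the integrin subunit Itgb5 was lower as well (-2.65 ± 0.26). Bridging ligands were among the higher genes. Gas6 had 22.4, 46.1, 133 and 122 CPM in fat against 10.4, 6.94 and 7.03 (3.02 ± 0.36), Pros1 was 3.81 ± 0.33 and Mfge8 4.31 ± 0.67. Cd36, which binds oxidized lipid and apoptotic cells, had 173, 216, 486 and 348 CPM against 3.94, 3.52 and 4.35 (6.17 ± 0.42). Among the scavenger receptors Cxcl16 (3.39 ± 0.41) and Colec12 (5.13 ± 1.17) were higher, and Scarb1 (-2.15 ± 0.31) and Marco (-6.22 ± 1.09) lower in fat.

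Of 9 tested Fc receptor genes 2 were higher and 1 lower (median -0.62), and without sATM 2 a second gene was called lower. The inhibitory receptor Fcgr2b had 215, 383, 266 and 318 CPM in fat and 2.85, 4.26 and 1.85 in spleen (6.61 ± 0.36, adjusted p = 8.88e-09), while the activating Fcgr4 was lower (99.1, 49.1, 20.7 and 12.6 against 158, 178 and 105; -2.07 ± 0.31). Fcgr3 (0.28 ± 0.23, adjusted p = 0.616) and Fcgrt (-0.73 ± 0.28, adjusted p = 0.123) were not called. Toll-like receptor genes had 1 higher, Tlr5 (4.33 ± 0.80), and 3 lower of 22, Tlr3 (-2.70 ± 0.45), Tlr4 (-1.71 ± 0.31) and Tlr12 (-3.04 ± 0.55), and without sATM 1 there were 5 lower. Over all tested genes 6.09% were higher and 5.09% lower.

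Interferon response genes had 3 higher and 5 lower of 32 (median -0.32), beside 6.09% higher and 5.09% lower over all tested genes. The membrane protein gene Ifitm3 was higher (1081, 1135, 665 and 623 against 255, 409 and 259; 1.46 ± 0.27). For Ifitm3, Irf7 and Ly6e both subcutaneous libraries were above both visceral ones. Without SpM 1, SpM 2 or vATM 2 the lower calls were 2, and without sATM 2 or SpM 1 the higher calls were 1.

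Lipid handling genes were called in both directions, 7 higher and 6 lower of 30 (median 0.09). The phospholipid transfer protein Pltp had 282, 1272, 1323 and 1073 CPM in fat and 47.1, 71.1 and 52.9 in spleen (4.08 ± 0.43), and the lipid droplet coat Plin2 240, 413, 241 and 297 against 56.2, 98.6 and 75.2 (1.95 ± 0.33). Lower in fat were the cholesterol exporter Abcg1 (-2.21 ± 0.35), the lysosomal lipase Lipa (-1.40 ± 0.26), Acp5 (-5.00 ± 0.40), Apoc1 (-5.83 ± 0.83) and Nr1h3, the oxysterol receptor LXR alpha (8.84, 6.24, 3.17 and 4.36 CPM against 182, 226 and 247; -5.36 ± 0.53), which stands in the red pulp list. Apoe, abundant in both, was 3706 RPKM in fat and 4298 in spleen on average. Sterol synthesis genes had 1 higher and 0 lower of 21, with a median of 0.14, shares under the 6.09% and 5.09% of all tested genes. Without SpM 1, SpM 2 or vATM 1 the higher lipid handling calls were 4.

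Glycolysis genes had 7 higher and 0 lower of 23 (median 1.12), and with raw gene-body counts 2 were called higher. The first enzyme's gene Hk1 had 15.6, 21.0, 20.7 and 25.2 CPM against 0.464, 0.919 and 1.09 (4.67 ± 0.47), the lactate exporter Slc16a3 22.1, 31.6, 20.2 and 22.8 against 0.835, 0.673 and 0.0194 (5.43 ± 0.79), and Pkm 192 to 317 against 65.5 to 104 (1.43 ± 0.27). Ldha was not called (0.59 ± 0.35, adjusted p = 0.391). Respiratory chain genes had 4 higher and 1 lower of 75 (median 0.47), proteasome genes 3 and 0 of 48 (median 0.23) and lysosomal proton pump genes 0 and 0 of 20 (median -0.16), shares near or under the 6.09% and 5.09% of all genes. Cytosolic ribosomal protein genes had 9 higher of 57 (median 0.88), but 2 without sATM 2, vATM 1 or vATM 2 and 4 without SpM 2. The respiratory chain count fell to 1 without sATM 2, SpM 2, vATM 1 or vATM 2 and the proteasome count to 0 without sATM 2 or vATM 1. The 1 respiratory gene lower in fat was Cox6a2, a subunit known from muscle (-7.86 ± 1.14).

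Proteases and their inhibitors had 9 higher and 5 lower of 32 (median 0.79). The gelatinase Mmp9 had 66.5, 68.3, 118 and 123 CPM in fat and 0, 0.990 and 0 in spleen (8.02 ± 0.88), Adam15 37.9, 141, 154 and 151 against 0.759, 0.354 and 0.891 (7.45 ± 0.56), and Ctsa was higher too (2.13 ± 0.35). The lysosomal protease Ctsb was lower, with 1084, 1650, 1416 and 1476 CPM against 5449, 6069 and 5008 (-1.97 ± 0.22). Among adhesion genes (4 higher and 8 lower of 29, median -0.14) Itgam, the CD11b subunit, had 247, 215, 249 and 176 CPM against 6.50, 3.09 and 3.97 (5.60 ± 0.41), so the related beta-2 partners Itgam and Itgad were on opposite sides. Transcription factor genes had 8 higher and 10 lower of 44 (median -0.02). Mef2c (4.17 ± 0.42) and Cebpa (2.10 ± 0.26) were higher, and Rxra (-2.23 ± 0.30) and Irf8 (-1.68 ± 0.27) lower. Without sATM 2 or vATM 1 the lower calls were 6.

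Growth factor genes had 3 higher and 4 lower of 22 (median -0.70), among the lower Fgf1 (0.255, 0.510, 2.22 and 1.88 CPM against 20.6, 14.6 and 18.5; -4.30 ± 0.84). The calls of Areg, Gdf3, Hbegf and Pdgfb were lost when some 1 library was left out, and without SpM 3 or vATM 1 the counts were 1 and 2. Cell cycle genes had 1 call of 29 (median 1.77, against -0.12 over all tested genes), the proliferation marker Mki67 (27.1, 68.2, 41.2 and 63.0 CPM against 9.48, 7.27 and 12.1; 2.38 ± 0.72, adjusted p = 0.0414). Without sATM 1 there were 3 calls, and without sATM 2, SpM 1, SpM 2, vATM 1 or vATM 2 there were 0. With the 7 fat and spleen libraries alone or with DESeq2 7 were called higher, and with limma voom 13. Of 12 genes for norepinephrine handling, the subject of the series title, 1 was higher and 1 lower, beside 6.09% and 5.09% of all tested genes. The degrading enzyme Maoa had 0, 4.69, 7.19 and 8.51 CPM in fat and 0.0454, 0 and 0.357 in spleen. That is 3 counts over the spleen libraries (ratio 47.2, counting interval 16.1 to 229), and the call was lost without sATM 2. The beta-1 receptor Adrb1 had 12.5, 2.64, 12 and 9.71 CPM against 109, 109 and 103 (-3.59 ± 0.45).

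The macrophage core list was split (5 higher and 6 lower of 21, median -0.31). The lysozyme gene Lyz2 had 8006, 11025, 7082 and 8224 CPM in fat and 94.0, 116 and 104 in spleen (6.35 ± 0.33, adjusted p = 6.86e-09), and its neighbor Lyz1 161, 1536, 2296 and 1812 against 1.72, 1.32 and 2.70 (9.43 ± 0.98). Reads can be shared between these similar genes. The colony-stimulating factor receptor Csf1r (914, 757, 1037 and 1294 against 2747, 3590 and 2529; -1.58 ± 0.23) and the phagocytosis checkpoint receptor Sirpa (-2.19 ± 0.21) were lower in fat and present in all libraries.

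**Figure D4:**
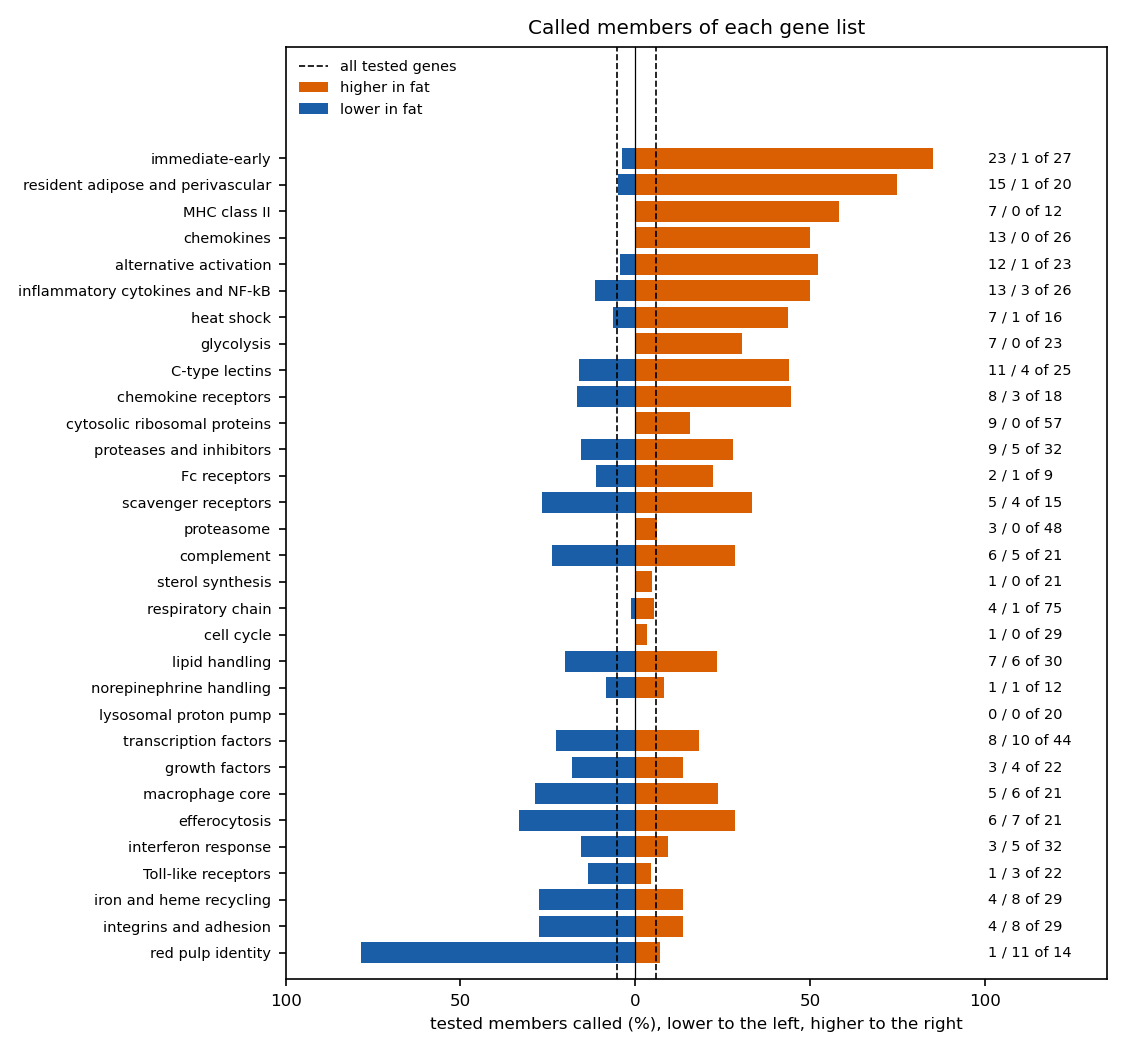
Share of the tested members of each gene list called higher in fat (orange, to the right) or lower (blue, to the left), in percent, with the counts higher / lower of tested at the right. Dashed lines mark the shares over all tested genes, 6.09% and 5.09%. Immediate-early and resident adipose genes lie at the top and red pulp genes at the bottom.

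Markers of other cells were measured beside these results. The monocyte list was high in fat, with 10 of 18 genes higher and 1 lower and a summed level of 3351 to 4864 CPM against 527 to 673 in spleen. It includes genes that fat macrophages may express themselves, such as Ccr2 and Fn1, which encodes fibronectin (855, 2614, 2684 and 2306 CPM against 31.0, 16.6 and 24.5; 6.43 ± 0.79). The library sATM 1 had more of the monocyte genes Ly6c2 (281 CPM against 2.40 to 59.3 in the other fat libraries), Plac8 (296 against 0.936 to 50.6), Ace (343 against 1.89 to 7.79) and Itgal (303 against 9.32 to 14.2). Ace and Itgal were picked after their values were seen. Without sATM 1, 8 monocyte genes were higher and 2 lower.

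Markers of stromal cells were at low levels but not even. Fibroblast genes were higher in fat in 7 of 14 (median 3.90, or 3.65 with genes listed at 0 on a side set to 3 counts), with summed levels of 127 to 231 CPM against 25.4 to 31.8. Gsn, which macrophages express too, made up much of it (56.7, 126, 81.0 and 120 CPM), while Dcn had 3.75 to 15.9 CPM and Col1a1 1.56 to 6.85 in fat. With raw gene-body counts 0 fibroblast genes were called higher. Adipocyte genes were higher in 3 of 12 (median 1.82, or 1.22 at the bound; sum 28.2 to 43.9 CPM against 4.47 to 20.3), Cfd having 8.05 to 13.9 CPM and the adipocyte hormone Adipoq at most 3.91. Without sATM 1, without either visceral library or without any 1 spleen library a single adipocyte gene was called. Neuron and Schwann cell genes had 3 of 14 higher, led by both subcutaneous libraries (Mbp 23.2, 14.5, 3.92 and 4.90 CPM against 0, 3.01 and 0.446), and 0 without sATM 1 or without vATM 1.

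Markers of other blood cells went both ways. B cell genes were lower in fat in 4 of 11 (sum 36.9 to 60.2 CPM against 279 to 348), with Cd79b at 59.2 to 87.8 CPM in spleen. Erythroid genes were lower in 6 of 12 (sum 43.7 to 531 CPM against 358 to 1092). They include 4 adult beta-globin entries of near-identical sequence whose separate values are uncertain, such as Hbb-bs with 140, 55.1, 23.7 and 10.1 CPM against 228, 96.1 and 300. The globin values thus overlapped between sATM 1 and spleen. Dendritic cell genes had 4 higher and 1 lower of 13, with summed levels of 165 to 273 CPM in fat against 85.8 to 113. Cd209a had 42.9, 95.5, 41.2 and 55.8 CPM against 0.855, 0.810 and 1.08 (6.02 ± 0.50). Siglech had 3.72, 8.42, 27.5 and 28.5 CPM against 2.10, 1.33 and 1.75 (2.91 ± 0.38). The lower gene was Clec9a, with 0 to 2.45 CPM against 21.8 to 31.2 (-7.47 ± 1.35). Without SpM 2 or vATM 2 the higher dendritic cell calls were 2. T cell genes had 1 of 13 higher (Il7r, 2.48 ± 0.53), NK cell genes 0 of 5, and neutrophil, mast cell and mesothelial genes at most 1 call each, all at low levels. The part of these cells in the differences above was not tested.

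**Figure D5:**
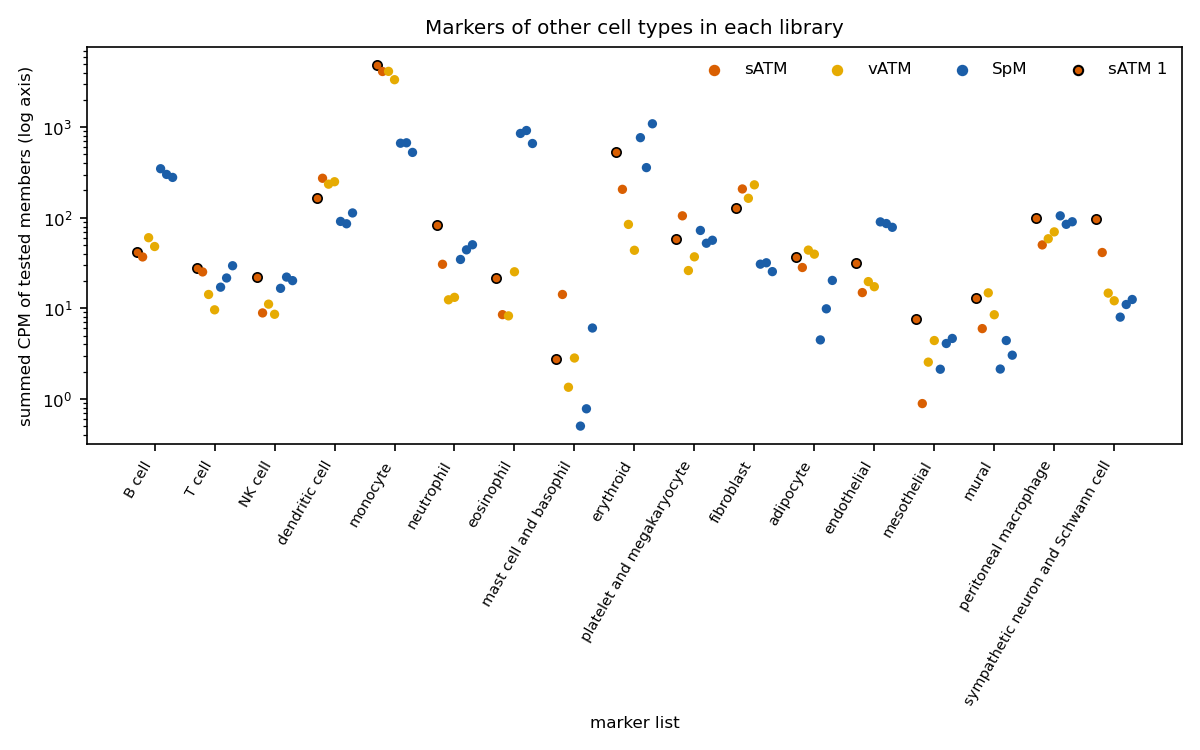
Summed CPM of the markers of 17 other cell types in each of the 7 libraries, on a log axis. The axis title says tested members, but members that were not tested are included in the sums. Orange points are sATM, yellow vATM and blue SpM, with sATM 1 outlined in black. The monocyte, fibroblast and adipocyte sums are higher in every fat library, and the B cell sums in every spleen library, while Ccr3 alone makes up most of the eosinophil sum in spleen and Pecam1 and Vwf most of the endothelial one.

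The depots were also set against each other, since both are measured against the same spleen libraries and the test asks whether the difference from spleen was unequal. Of 15289 genes 3 were higher in subcutaneous fat (0.0196%) and 3 lower (0.0196%), against 569 with an unadjusted p below 0.05. The median log2 difference over all tested genes was -0.04. Without sATM 1, vATM 1 or vATM 2, 0 genes were called, and without sATM 2 the counts were 52 and 16. Slc40a1 had 7.82 and 11.9 CPM in subcutaneous and 51.3 and 71.7 in visceral fat, the organic anion transporter Slco2b1 30.2 and 44.5 against 131 and 137, and the monocyte genes Plac8 and Ly6c2 296 and 50.6 against 2.37 and 0.936, and 281 and 59.3 against 2.87 and 2.40. The G protein subunit Gngt2, with 151 and 24.4 CPM against 4.32 and 3.77, was the remaining named gene. Relative to spleen (123, 139 and 147 CPM of Gngt2), sATM 1 alone was at the spleen level.

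Values of 0 in the corrected table need care. Of 191 tested genes listed at 0 in all 4 fat libraries, 21 had at least 100 raw gene-body counts in each of them, and 9 of these were called lower in fat. For 6 of the 9 the raw table showed the opposite sign, none of them called there. On the spleen side 23 of 373 such genes had that many raw counts and 3 were called higher in fat, 2 with the opposite sign in the raw table. Itga9, listed at 0 in fat and at 296, 238 and 193 CPM in spleen (adjusted p = 6.86e-09), had 4001, 9708, 11254 and 10785 raw gene-body counts in fat against 31929, 18074 and 18182 in spleen, and its raw difference was not called (-0.76 ± 0.74). No fold change is given for it. Raw counts include introns and DNA reads, so they do not settle the mature transcript level. Fam167a, also listed at 0 in fat, had 30.6 to 34.0 CPM in spleen. If its 0 holds, that is at least 319-fold above the 3 counts over the fat libraries taken as the limit of detection. Its raw gene-body counts were 12, 115, 4 and 99 in fat against 847, 497 and 533 in spleen, and its call was lost with raw gene-body counts. Genes listed at 0 in both groups cannot be compared in this table.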

How the data were processed

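RNA from F4/80+ CD45+ macrophages was sequenced in 15 libraries, of which 7 are compared here. The authors deposited estimated counts per gene after removal of reads from contaminating DNA, raw counts over whole gene bodies, and RPKM values; the submitters' processing notes name STAR, HOMER and mm10, whose versions and settings are not given in the sources here. The estimated counts were rounded to whole counts. Genes with enough counts (filterByExpr, minimum 10) were scaled by TMM and fitted with edgeR 4.0.16 in R 4.3.3, with 1 mean for each of 6 groups over all 15 libraries, and the contrast weighted both depots equally. P-values were adjusted by Benjamini-Hochberg. A gene was called at an adjusted p below 0.05 and a log2 fold change of 1 or more, and SE is the size of that change over the root of F. Alternatives used DESeq2 1.42.0, limma 3.58.1 and log2(RPKM + 0.1) of the deposited RPKM. The scripts were tested on simulated data. Intervals and the detection limit of 3 counts cover counting error of the rounded corrected counts only. The error of removing DNA reads is not in them.

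The genes and lists were chosen with earlier results of these data known. Named genes are the sort and tissue markers, up to 8 members of each list (by smallest p among the called, then by abundance, with members that moved against the list), the 15 largest called changes in each direction with a mean of at least 30 CPM and no overlap (predicted genes, small RNA and receptor segments left out), and the depot calls. Rn45s, Lars2, Mir6236, Ftl1, Fth1, Apoe, Cxcl2, Ace and Itgal were named after their values were seen. The total counts above set the precision, and 3 counts correspond to 0.2495 to 0.7639 CPM in a library. Libraries with the same replicate number all correlated positively in their deviations, at 0.0506 to 0.46. These values are not independent, since the 2 libraries of a depot deviate by equal amounts in opposite directions. They do not settle whether the numbers pair libraries. The numbers were not used in the main fit, and a fit with the number as a block is given below. Some genes are not reported here. Promoter sequences are from RefSeq, GRCm38.p6.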

Additional observations from a re-analysis of the deposited data

Results flagged for a closer look

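The difference between depots, which is also the difference between their distances from spleen, passed the test of the depot contrast for 5 named genes. The log2 differences of subcutaneous minus visceral fat were -2.62 for Slc40a1, -1.84 for Slco2b1, 6.66 for Plac8, 5.98 for Ly6c2 and 4.42 for Gngt2. Plac8 and Ly6c2 are monocyte genes, and Slc40a1 is the iron exporter that was much lower in fat than in spleen. In sATM 1 and sATM 2, Plac8 had 296 and 50.6 CPM, Ly6c2 281 and 59.3 and Gngt2 151 and 24.4, so both subcutaneous libraries were above the visceral ones and sATM 1 was the higher. The part of monocytes in these values was not tested. All 5 calls were lost without sATM 1, without vATM 1 and without vATM 2.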

How the results depend on the processing

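Of 356 named genes 232 were called, and 95 of these kept the call under all 19 alternatives. For 136 it was lost at least once, 131 with raw gene-body counts. The sign turned for 1, Hsp90aa1 (4.09 with raw gene-body counts, where it was not called). The counts of 931 higher and 778 lower genes became 243 and 175 with raw gene-body counts and 1499 and 1389 with limma voom. With only the 7 fat and spleen libraries 1194 were lower, with log2(RPKM + 1) 1172 were lower, and with log2(RPKM + 0.1) and no filter 592 were higher. Leaving out 1 library gave 666 to 812 higher and 510 to 718 lower. The share of called genes that were higher was 54.5%, against 39.2% with log2(RPKM + 0.1) and 35.3% with log2(RPKM + 1).

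With the replicate number as a block 852 genes were higher and 758 lower, sharing 1537 of the calls, and 10 genes were higher in subcutaneous fat. Same-numbered libraries correlated at 0.0506 to 0.46 in their deviations. All 6 values were positive, but they are not independent. With 2 libraries per depot the deviations mirror each other, and both values of sATM with vATM were 0.222. The values cannot decide whether the number pairs libraries, and the block was not taken as the design. The number does go with library properties: replicate 1 had the fewest detected genes of each group (13616 to 15161, against 17039 to 17388) and fewer olfactory receptor counts per M raw counts (31.59 to 98.02, against 268.5 to 473.64).

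The depot counts of 3 and 3 became 67 and 15 with no filter, 15 and 10 without both nerve fiber libraries, 21 and 14 with limma voom, 84 and 35 with DESeq2, 5 and 1 with log2(RPKM + 0.1), and 0 and 0 with raw gene-body counts. The lower count was 0 with the 7 libraries alone, with log2(RPKM + 1) and with the unfiltered RPKM. Leaving out 1 library gave 0 to 52 higher and 0 to 16 lower. The cause of these shifts was not tested. Depth limits the low genes, above all in sATM 1.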

Other observations

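Several gene families that no list covers were examined after the values were seen, so their counts are descriptions, to be read beside the 6.09% of all tested genes called higher and the 5.09% called lower. Of 9 tested S100 genes, which encode small calcium-binding proteins, 6 were higher in fat and none lower (median log2 fold change 5.49, against -0.12 over all tested genes). S100a4 had 262, 330, 336 and 292 CPM in the fat libraries and 1.82, 0.729 and 1.87 in spleen, and S100a6 had 240, 277, 437 and 225 against 2.43, 0.0832 and 1.14. Their annexin partners were in part higher too, 4 of 9 (median 1.12), with Anxa1 at 62.6, 108, 73.0 and 66.2 CPM against 0.671, 0.324 and 1.66.

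Of 42 tested potassium channel genes 4 were higher and 5 lower (median -0.34), both shares above the 6.09% and 5.09% of all tested genes. Kcna2, a voltage-gated channel best known from neurons, was lower in fat, with 3.06, 2.33, 0 and 0.960 CPM against 412, 335 and 369. Semaphorin, plexin and neuropilin genes, which encode guidance cues and receptors, had 7 higher and 4 lower of 21. Sema4a had 88.7, 136, 136 and 148 CPM against 0, 0.789 and 0.638, while Sema6d had 12.5, 8.62, 22.8 and 27.7 against 289, 332 and 226. The interferon-inducible GTPase genes had 4 of 14 lower, with Gbp8 at 9.75, 15.6, 10.3 and 5.91 CPM against 360, 354 and 326. In the Cd300 family 4 of 6 were lower and 1 higher. Cd300e had 62.8 CPM in sATM 1 and 0 to 2.23 in the other fat libraries, against 84.4 to 179 in spleen. The purine receptors P2ry6 (45.2, 101, 98.2 and 131 CPM against 0.915, 1.94 and 0.482) and P2ry13 (14.3, 3.22, 13.3 and 19.5 against 318, 351 and 225) were on opposite sides.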
